A study of Mus musculus with 81 samples.

Results

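The nuclear genes of the mitochondrial respiratory chain and ATP synthase were followed across mouse macrophages and their yolk-sac progenitors. The members were all genes on the array with a single-symbol probe whose symbol starts with Ndufa, Ndufb, Ndufc, Ndufs, Ndufv, Uqcr, Cox4, Cox5, Cox6, Cox7, Cox8, Sdh or Atp5. Pseudogene symbols were left out, and the brightest probe stood for each gene. The rule gave 91 of 22180 genes, chosen by name and not by their values, and 89 of them passed the filter on low values (Cox7b2 and Cox8c did not). By role there were 32 subunits of complex I, 4 of complex II, 7 of complex III, 16 of complex IV and 17 of complex V. The others were 8 complex I assembly factors (Ndufaf1 to Ndufaf8), 4 complex II assembly factors (Sdhaf1 to Sdhaf4), Cox7a2l, Ndufa4 and Ndufa4l2. A further 8 genes with these prefixes, among them Cox6c, Ndufb2, Ndufs6 and Uqcr10, were only on probes with several symbols and were not analysed here.

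Sorted cells were measured on Affymetrix arrays, 80 samples in 27 groups, and all values are log2 signals. The wild-type groups were erythro-myeloid progenitors of the E8 yolk sac (EMP), the yolk-sac populations A1 and A2 at E9.5, and 5 populations at E14: microglia of the brain, Kupffer cells and CD11bhigh macrophages of the liver, and F4/80high and CD11bhigh macrophages of the kidney. The same 5 populations and Langerhans cells of the skin came from adults 6 weeks old. Irf8 knockout mice gave the same populations except the EMP, and Irf8 encodes a transcription factor of the mononuclear phagocyte lineage. Each group had 3 samples, except E14 wild-type kidney F4/80high macrophages with 2. GFP+ is part of the sample titles for Langerhans cells of the wild type but not of the knockout, so that this difference and the genotype cannot be told apart. The labels do not say which samples came from separate animals, nor whether populations of 1 organ whose titles share a number came from the same animal, so the spread between samples may be technical.

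Complex I (NADH dehydrogenase) and complex II (succinate dehydrogenase) pass electrons to coenzyme Q, complex III passes them to cytochrome c, and complex IV reduces oxygen. Complexes I, III and IV pump protons, and complex V, the ATP synthase, makes ATP as the protons return. Most subunits are encoded in the nucleus and a few in mitochondrial DNA, and several complex IV subunits have isoform genes used in particular tissues. In macrophages the chain is a source of ATP and of reactive oxygen species, and its use relative to glycolysis changes with activation.

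The Irf8 signal was lower in the labelled knockout in some populations only. It was 5.72 against 8.74 in E14 liver CD11bhigh macrophages (limma adjusted p = 5.65e-15), but 10.3 against 9.83 in adult microglia (adjusted p = 0.244). The sources used here do not give the part of the transcript that the probe reads, so it does not check the labels. Transcripts of the sex chromosomes moved with genotype in adult Kupffer cells: Xist was 9.68 in the knockout and 3.27 in wild type, and Eif2s3y 2.80 and 6.97 (adjusted p = 0.00186 and 0.0202). The labelled cell type was checked by 14 macrophage markers. Their mean was 3.69 in EMP, 6.87 in wild-type Langerhans cells, and 9.85 and 9.56 in adult wild-type microglia and Kupffer cells. In E14 liver CD11bhigh cells neutrophil markers averaged more than the macrophage markers: 9.11 against 7.76 (wild type), 10.055 against 7.18 (knockout). So they did in knockout CD11bhigh cells of adult liver (9.94 against 8.095) and E14 kidney (9.33 against 8.34). In the remaining CD11bhigh groups the macrophage markers averaged more. For CD11bhigh groups the word macrophages is therefore the label only, and their share of neutrophils was not tested.

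Respiratory chain transcripts were higher in the progenitors and most E14 groups than in adult cells, and lowest in adult microglia. The exception was wild-type E14 microglia, whose mean (7.78) lay below 3 adult groups, wild-type kidney CD11bhigh (7.91), knockout Langerhans (7.82) and knockout liver CD11bhigh cells (7.80). The mean of the 74 tested subunits was 8.34 ± 0.10 (SD, n = 3) in EMP, 8.15 ± 0.01 in A1 and 8.16 ± 0.06 in A2. The wild-type E14 groups ranged from 7.78 in microglia to 8.17 in liver CD11bhigh macrophages. Among adult wild-type groups the mean was 7.14 ± 0.08 in microglia, 7.54 ± 0.18 in Kupffer cells, 7.57 ± 0.04 in Langerhans cells, 7.64 ± 0.18 in kidney F4/80high, 7.71 ± 0.10 in liver CD11bhigh and 7.91 ± 0.41 in kidney CD11bhigh macrophages. Every adult microglia sample (at most 7.21) lay below every sample of the other adult wild-type groups, and the Kupffer, Langerhans and kidney F4/80high samples overlapped. The kidney CD11bhigh samples spread from 7.54 to 8.35, the widest range of the 27 groups.

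**Figure D1:**
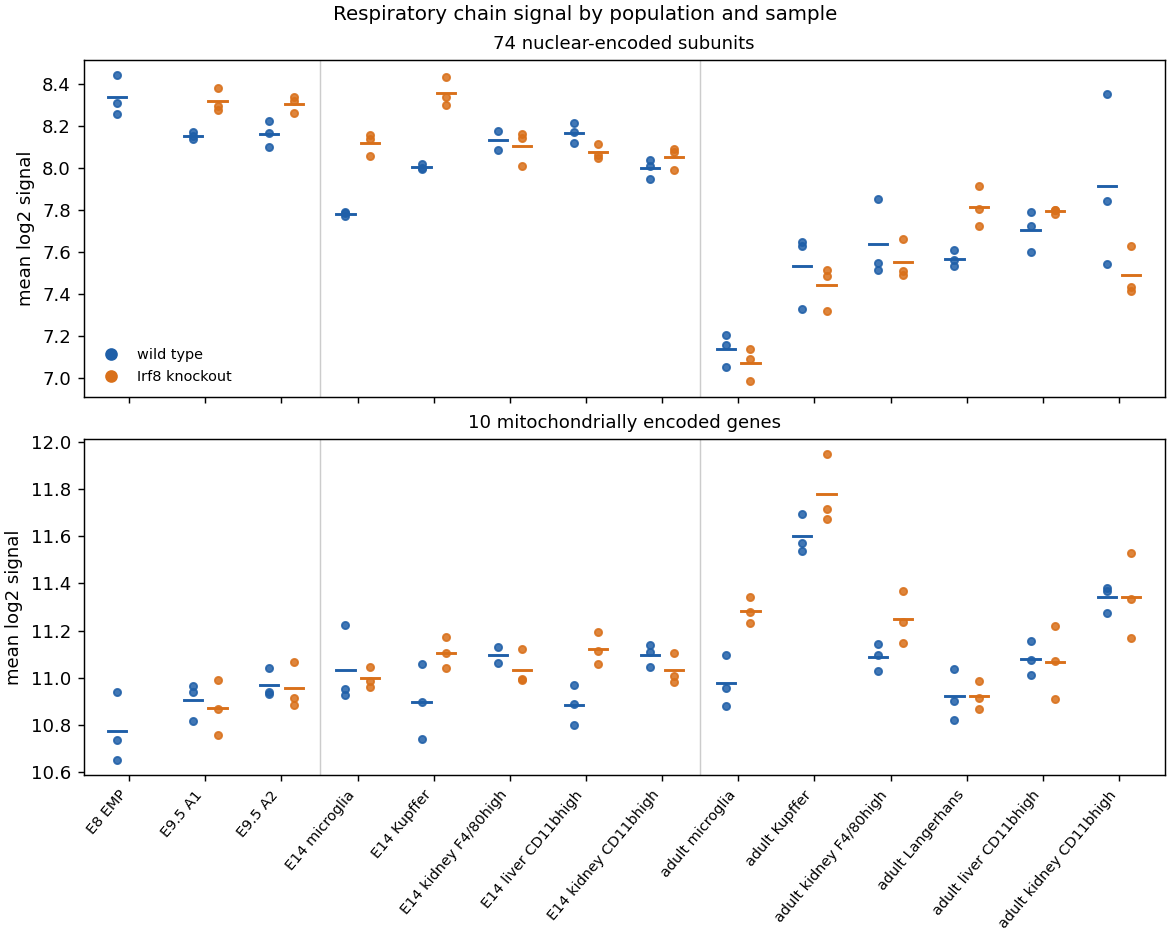
Mean log2 signal per sample of the 74 tested nuclear subunits (top) and of the 10 mitochondrially encoded genes (bottom) in 14 populations; blue points are wild type, orange points Irf8 knockout, and bars are group means. The nuclear subunits are lower in the adult groups, down to 7.14 in wild-type adult microglia, while the mitochondrially encoded genes reach 11.6 in wild-type adult Kupffer cells.

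Most members followed a common course across groups, but not all. A moderated F-test of limma over the 14 wild-type groups called 84 of the 89 tested members (background 84.6%), and the median range of the group means was 1.62 for members against 1.74 for all tested genes. Across the 27 groups, 76 of 89 members correlated above 0.5 with the mean of the other subunits, which is given as a description. All points share the array platform and its normalization. Ndufv2 of the electron-input module of complex I (r = 0.97) and Atp5a1, the alpha subunit of the ATP synthase (r = 0.965), followed the mean closely, and the complex III subunits had a median r of 0.91. Cox8b (r = -0.34), Ndufs5 (r = -0.335) and Cox6a2 (r = -0.17) ran below 0. The group means of Cox8b were all near the floor of the array, from 1.79 to 2.57.

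The subunit mean also ran with other lists across the 27 groups. Its r was 0.92 with mitochondrial ribosomal proteins, 0.91 with the citric acid cycle, 0.90 with both cytosolic ribosomal proteins and glycolysis, and 0.88 with cell cycle genes. With the 10 mitochondrially encoded genes it was -0.54.

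The genes with the widest range over wild-type groups were isoforms and assembly factors. Cox6b2, an isoform of Cox6b1 known from testis, spanned 4.07 log2, from 4.90 in adult Kupffer cells to 8.97 in E14 liver CD11bhigh macrophages. Cox4i2, the isoform of Cox4i1 known for its use at low oxygen in lung, spanned 3.41, with its lowest mean (2.87, E14 Kupffer cells) below the floor of 3.041 used as filter. Ndufaf7, Ndufaf2, Ndufaf6 and Ndufaf4, factors that help to build complex I, spanned 3.08, 2.89, 2.875 and 2.82. Sdhaf4, an assembly factor of complex II, spanned 2.66 and the muscle isoform Cox7a1 2.28.

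In the yolk sac, the step from EMP to A1 changed few members, and Cox4i2 most. Cox4i2 read 3.78, 3.93 and 3.63 in the EMP samples, and 6.10, 5.95 and 6.33 in A1. The groups did not overlap, and Cox4i2 was higher in A1 by 2.35 ± 0.29 (SE; limma adjusted p = 6.62e-10). Over this step 2 members rose and 8 fell (background, the share of all 17099 tested genes called the same way, 12.8% higher and 9.88% lower). Ndufaf4 fell by 0.78 (adjusted p = 0.0033), Uqcrh, a subunit of complex III, fell by 0.58 (adjusted p = 0.00684), and Cox6b2 fell by 1.17 (adjusted p = 0.0116). With each array centred on its median, 1 rose and 13 fell. The erythroid list fell in 10 of its 10 tested genes over the same step, from sample means of 8.14 to 8.48 in EMP to 4.97 to 5.38 in A1, and its part in the result was not tested. Without EMP replicate 1, A1 replicate 1 or A1 replicate 3 the called members numbered 6, 4 and 6.

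From A1 to A2 only Cox6b2 was called by limma (-1.06, adjusted p = 0.0435; background 5.67% higher and 5.7% lower). Leaving out A1 replicate 1, 2 or 3 or A2 replicate 1 ended that call (-0.54 and adjusted p = 0.515 in the last case), as did median centring, quantile normalization, testing without the filter and a fit of these 2 groups alone. Cox7a1 was called higher without A2 replicate 1 (1.465), with median centring (1.32), with array weights (1.16), with replicate number as a block and in the fit of the 2 groups alone (both 1.22).

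From A2 to E14, Cox4i2 fell in microglia, Kupffer cells and kidney F4/80high macrophages. Of the 8 complex I assembly factors, 5, 5 and 4 fell in these populations and 0 rose. Cox4i2 read 6.01, 6.40 and 6.44 in A2, and 2.81, 3.81 and 3.22 in E14 microglia. It read 2.85, 2.69 and 3.07 in E14 Kupffer cells, and 4.05 and 5.04 in E14 kidney F4/80high macrophages. None of these E14 samples reached the A2 range. It fell by 1.74 ± 0.32 in kidney (adjusted p = 3.76e-05). In Kupffer cells 2 of 3 samples and in microglia 1 of 3 were at or below the floor, so the differences there are lower bounds: with such samples set to the floor, Cox4i2 was lower by at least 3.23 in Kupffer cells and at least 2.925 in microglia (group means 2.87 and 3.28 against 6.28 in A2; adjusted p of the measured values = 2.73e-15 and 4.32e-13). The 3 comparisons share the A2 samples.

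In microglia 39 members fell and 1 rose from A2 to E14 (background 14% higher and 15.2% lower), with a member median of -0.395 against -0.01 for all genes. Of the complex I subunits 15 of 32 fell. Ndufaf2, Ndufaf4 and Ndufaf6 changed by -1.59, -1.31 and -1.66. Cox7a2l, which joins complexes III and IV in supercomplexes, was the member that rose (0.59, adjusted p = 0.00503). The cell cycle list fell in 18 of 21 genes over the same comparison, against 4 in Kupffer cells and 4 in kidney F4/80high macrophages. The macrophage list rose in 11 of 14 genes, and of 16 neutrophil genes 8 rose and 2 fell. The part of these lists in the result was not tested.

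In Kupffer cells 13 members fell and 2 rose (background 11.5% higher and 14% lower). The 2 that rose were Cox6b2, which read 4.71, 6.17 and 6.34 in A2 and 7.82, 8.19 and 7.93 in Kupffer cells, and Sdhc, a membrane anchor of complex II (0.45). The erythroid list was higher in E14 Kupffer cells in 7 of 10 genes and the hepatocyte list in 11 of 16 (sample means 7.52 to 8.09 and 5.77 to 6.05), and their part was not tested. In kidney F4/80high macrophages 7 fell and 3 rose (background 9.89% higher and 8.26% lower), the higher ones being Cox5a, Cox6b1 and Ndufa7. With each array centred, the counts were 25 lower and 1 higher in Kupffer cells, and 15 lower and 0 higher in kidney. That setting moved the median of all genes from -0.06 to -0.18 in Kupffer cells and from -0.01 to -0.155 in kidney. Leaving out E14 kidney replicate 1 or 2 left 3 or 5 calls, and leaving out A2 replicate 3 or Kupffer replicate 1 left 9 calls in Kupffer cells.

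The broadest change was the fall from E14 to the adult. Wild-type Xist means were 8.23, 7.88, 8.15 and 7.08 in E14 Kupffer, kidney F4/80high, liver CD11bhigh and kidney CD11bhigh cells. In adults of these populations they were 3.27, 3.04, 3.14 and 3.34. Eif2s3y means were 4.39, 4.19, 4.35 and 5.27 at E14 and 6.97, 6.93, 7.33 and 6.97 in adults. In microglia Xist was 8.94 and 7.84, and Eif2s3y 4.74 and 4.46. The part of sex in the fall was not tested. In microglia 55 of 89 members fell and 2 rose (background 6.68% higher and 11.7% lower), with a member median of -0.69 against -0.01 for all genes. The members that fell were 22 of 32 complex I subunits, 2 of 4 of complex II, 7 of 7 of complex III, 8 of 14 tested of complex IV and 12 of 17 of complex V, besides 4 others. Cox4i1, the common isoform of the regulatory subunit of complex IV, read 10.33, 10.17 and 10.28 at E14 and 9.02, 9.23 and 9.11 in adults. It fell by 1.14 ± 0.10 (adjusted p = 4.66e-14). Cox5a, another complex IV subunit, fell by 1.27; Atp5d, a rotor subunit of the ATP synthase, fell by 1.33; and Ndufa1, a small membrane subunit of complex I, fell by 1.33. The adult samples lay below every E14 sample for each of these 4 genes. Cox6a2 and Ndufaf7 rose by 1.10 (adjusted p = 0.0104) and 0.52 (adjusted p = 0.046).

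In Kupffer cells 47 members fell and 0 rose (background 11.8% higher and 18.3% lower), with a member median of -0.48 against -0.04. The fall took in 23 of 32 complex I subunits, 7 of 17 of complex V and 3 of 4 of complex II. Cox6b2 read 7.82, 8.19 and 7.93 at E14 and 4.01, 5.65 and 5.04 in adults. It fell by 3.08 ± 0.36 (adjusted p = 1.67e-10), with no overlap. Ndufaf7 fell by 1.455 and Cox4i1 fell by 0.69, while Cox5a had means of 10.38 in E14 and 10.32 in adult cells (adjusted p = 0.818). The erythroid list fell in 10 of 10 genes over the same comparison, to the floor in every adult sample for 7 of them. The hepatocyte list rose in 10 of 16 (sample means 5.77 to 6.05 at E14 and 8.09 to 8.44 in adults) and the endothelial list in 13 of 16, and their part in the result was not tested. Without adult wild-type replicate 3 the members called lower numbered 25.

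In kidney F4/80high macrophages 45 members fell and 0 rose (background 12.2% higher and 16% lower), with a member median of -0.52 against -0.05. Cox5a read 10.64 and 10.65 at E14 and 9.63, 9.22 and 9.07 in adults. It fell by 1.34 ± 0.16 (adjusted p = 4.65e-10). Ndufc1 and Ndufa11, both of complex I, changed by -1.28 and -1.32. The kidney tubule list rose in 12 of 14 genes, from sample means of 2.65 to 2.75, with 8 markers at the floor, to 4.95 to 6.99 in adults, and its part was not tested. Without E14 replicate 2 the members called lower numbered 26.

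In liver CD11bhigh macrophages 52 members fell and 1 rose (background 14% higher and 20.3% lower), with a member median of -0.49 against -0.01. Atp5b, the catalytic beta subunit of the ATP synthase, read 10.42, 10.50 and 10.51 at E14 and 9.64, 9.45 and 9.66 in adults. It fell by 0.89 ± 0.13 (adjusted p = 9.03e-08). Ndufa12 of complex I fell by 1.15, Ndufaf2 fell by 1.47 and Cox6b2 fell by 1.91. Here 7 of the 8 complex I assembly factors fell and Ndufaf7 rose (0.50, adjusted p = 0.0321). The neutrophil list fell in 9 of 16 genes (sample means 8.97 to 9.23 at E14 and 5.58 to 6.995 in adults) and the macrophage list rose in 11 of 14 over the same comparison. Their part was not tested.

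Kidney CD11bhigh macrophages had 11 members lower and 4 higher (background 14.4% higher and 20.6% lower). Wild-type adult replicate 1 stood apart there. Its 14 tubule markers averaged 8.93, against 6.31 and 6.83 in the other adult wild-type samples and 2.62 to 2.69 at E14, and its subunit mean was 8.35. Without it 37 members were lower and 3 higher, and the member median moved from -0.13 to -0.33. Without adult replicate 3 the split turned, to 13 higher and 5 lower with a member median of 0.03, and without adult replicate 2 it was 3 higher and 5 lower. Without E14 replicate 1 the calls numbered 10. Quantile normalization gave 8 lower and 7 higher, and median centring 18 and 3. Cox6a1, the common isoform of the Cox6a subunit, was higher in adults by 0.44 (adjusted p = 0.00024) and Atp5g2 fell by 0.60 (adjusted p = 0.00126). Both calls held in every fit with 1 sample left out, but a fit of these 2 groups alone called 1 member.

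**Figure D2:**
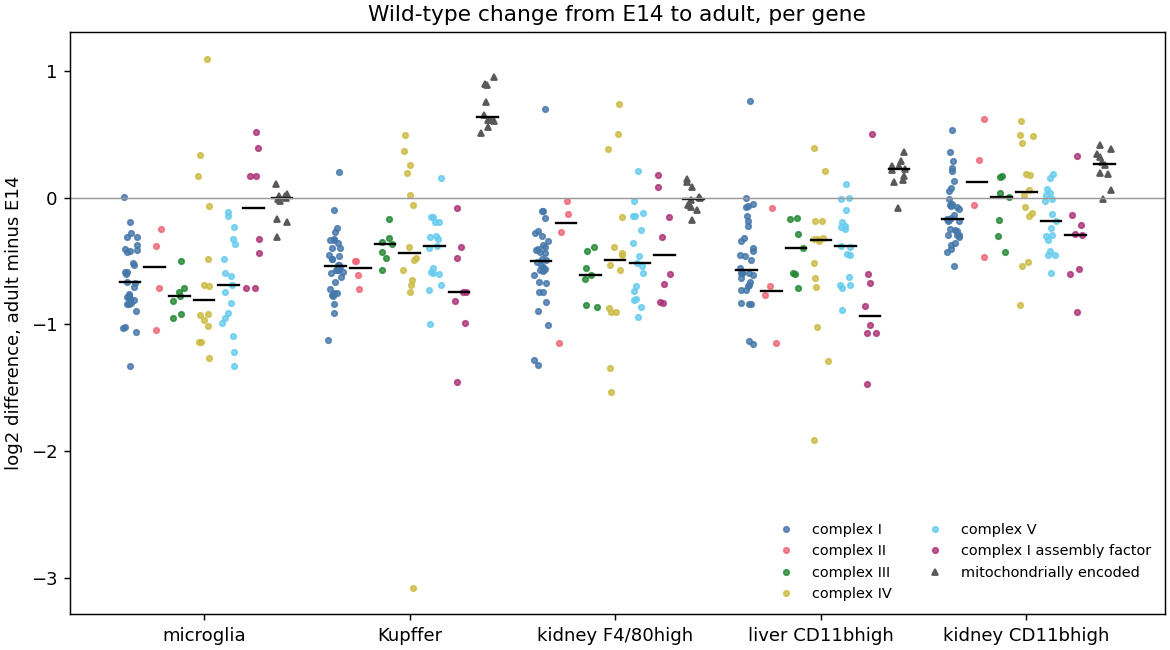
Log2 difference from E14 to adult in wild-type cells of 5 populations, 1 point per gene, coloured by complex, with grey triangles for the 10 mitochondrially encoded genes and black bars for medians. Most nuclear subunits lie below 0 in microglia, Kupffer cells, kidney F4/80high and liver CD11bhigh macrophages, and the mitochondrially encoded genes lie above 0 in Kupffer cells (median 0.635).

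Of the 89 members, 20 fell in microglia, Kupffer cells, kidney F4/80high and liver CD11bhigh macrophages alike, 20 in 3 of the 4, 22 in 2, 15 in 1 and 12 in none. For members these are 22.5%, 22.5%, 24.7%, 16.9% and 13.5%, and for all 17099 tested genes 4.03%, 4.9%, 8.46%, 18.5% and 64.1%. No sample enters more than 1 of these 4 comparisons, but the labels do not say whether Kupffer and liver CD11bhigh samples came from the same animals. Kidney CD11bhigh macrophages (11 lower and 4 higher, with the background given above) were left out of these counts. Among the 20 are Uqcrc1 of complex III, Cox4i1, Cox5b, Cox7a2 and Cox8a of complex IV, Atp5a1, Atp5g2 and Atp5g3 of complex V, and the complex I subunits Ndufb8 and Ndufs8. Atp5a1 changed by -0.83, -0.59, -0.74 and -0.72 in the 4 populations in that order, and within each population its E14 and adult samples did not overlap. Its E14 samples lay between 9.69 and 10.25 and its adult samples between 8.73 and 9.87. The 12 that fell in none include Atp5c1, Atp5o, Cox7c, Ndufs5 and Ndufb11. Ndufs5, a complex I subunit, had differences of 0.005, 0.20, 0.70 and 0.76 that did not pass the test (adjusted p from 0.0845 to 0.997).

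The mitochondrially encoded genes did not follow the nuclear ones. In Kupffer cells 10 of 10 rose from E14 to adult (median 0.635), in liver CD11bhigh macrophages 4 rose (2 under median centring and 6 under quantile normalization) and in kidney CD11bhigh macrophages 6 rose (4 and 7). In microglia 1 fell (median -0.01) and in kidney F4/80high macrophages 0 were called by limma (median -0.01) and 2 under quantile normalization. In Kupffer cells median centring and quantile normalization also gave 10 of 10 higher, with medians of 0.55 and 0.495. The hepatocyte list rose in 10 of 16 genes in Kupffer cells, and in liver CD11bhigh cells 7 rose and 1 fell. The kidney tubule list rose in 13 of 14 in kidney CD11bhigh and 12 of 14 in kidney F4/80high macrophages. Their part was not tested. Over all knockout populations the mean effect on mitochondrially encoded ND3 was 0.77 (limma adjusted p = 5.85e-33). ND3 was called higher in each of them, from 0.41 in adult Kupffer cells to 1.24 in adult microglia. A difference that goes with every knockout group cannot be told apart from other differences between the mice, and its cause was not tested. The other mitochondrially encoded genes had mean effects from -0.06 to 0.05, and none passed the test. Other lists fell with the nuclear members: mitochondrial ribosomal proteins in 25, 49, 59 and 52 of 71 genes in microglia, Kupffer, kidney F4/80high and liver CD11bhigh cells, and cell cycle genes in 21 of 21 in each. Citric acid cycle genes fell in 4, 9, 7 and 11 of 16 and glycolysis genes in 7, 12, 10 and 10 of 18.

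Promoter sequences are shown for genes that fell in all 4 of those populations, for members of wide range, and for Ndufa11, picked for its motif. The windows were chosen one by one, so they do not show how common a motif is. In the RefSeq promoter set (GRCm38.p6, from 250 bases before to 50 after the start), 76 of the 91 members had 81 promoters. Motifs of factors known to regulate respiratory genes were searched on both strands. The NRF1 motif, GCGCA followed directly by TGCGC, was in 7 of 81 (8.64%), against 0.97% of all 32851 promoters and 1.62% of those of tested genes. The ETS motif CCGGAAG, of the kind bound by GABP, was in 22 (27.2%, against 8.86% and 13.7%), and the YY1 motif AAGATGGCG in 7 (8.64%, against 1.4% and 2.25%). The ERR motif TCAAGGTCA was in 2 (2.47%, against 0.42% and 0.3%), and CCAAT was in 32 (39.5%, against 37.4% and 37.15%). A match describes letters only. The windows below are 160 bases upstream of the start. They belong to Atp5g2 and Atp5g3, which encode the same c-ring protein of the ATP synthase and fell in all 4 populations, to Ndufaf4 and Ndufa11, which hold the NRF1 motif, and to the widely ranging isoform Cox6b2. Capitals mark NRF1 in Atp5g2, Ndufaf4 and Ndufa11, CCAAT and the ERR motif read on the opposite strand in Atp5g3, and CCAAT on the opposite strand in Cox6b2. In the order shown they lie at chr15:102671048-102671207 (minus strand), chr2:73911327-73911486 (minus), chr4:24897923-24898082 (plus), chr17:56717602-56717761 (plus) and chr7:4753095-4753254 (minus).
Atp5g2: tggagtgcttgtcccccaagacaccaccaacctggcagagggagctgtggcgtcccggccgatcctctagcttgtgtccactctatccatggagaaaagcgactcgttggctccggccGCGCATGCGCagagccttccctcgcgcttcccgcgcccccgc
Atp5g3: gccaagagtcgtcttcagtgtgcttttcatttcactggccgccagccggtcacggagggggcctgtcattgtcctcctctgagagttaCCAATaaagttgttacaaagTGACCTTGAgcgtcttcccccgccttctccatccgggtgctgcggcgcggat
Ndufaf4: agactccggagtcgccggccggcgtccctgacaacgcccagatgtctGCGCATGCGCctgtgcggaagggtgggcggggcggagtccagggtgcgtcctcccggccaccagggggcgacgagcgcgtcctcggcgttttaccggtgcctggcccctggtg
Ndufa11: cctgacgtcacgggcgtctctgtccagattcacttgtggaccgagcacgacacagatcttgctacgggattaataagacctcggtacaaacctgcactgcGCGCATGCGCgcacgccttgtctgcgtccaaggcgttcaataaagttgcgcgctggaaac
Cox6b2: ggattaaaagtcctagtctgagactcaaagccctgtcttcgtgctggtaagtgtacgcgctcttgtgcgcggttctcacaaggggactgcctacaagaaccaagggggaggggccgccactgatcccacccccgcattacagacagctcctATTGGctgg

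The c-ring genes Atp5g2 and Atp5g3 fell by similar amounts in each population. Atp5g2 read 10.56, 10.39 and 10.66 in E14 microglia and 9.59, 9.43 and 9.62 in adult microglia. It changed by -0.99, -0.58, -0.86 and -0.69 in microglia, Kupffer, kidney F4/80high and liver CD11bhigh cells, and Atp5g3 by -1.09, -0.605, -0.81 and -0.69. Atp5g1, the third gene for this protein, had group means between 1.52 and 2.84, near the floor.

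Among the 4 adult resident populations, microglia were compared with the mean of the other 3, and 49 of 89 members were lower and 5 higher (background 20.5% higher and 20.7% lower). Complex III was lower in 7 of 7 subunits and complex V in 11 of 17. Microglia were not lowest throughout: the complex II mean was 7.15 in microglia and 6.86 in Langerhans cells. Cox5a differed by -1.30, Atp5d by -1.28 and Ndufa1 by -1.28 (adjusted p = 3.31e-15, 1.1e-12 and 4.59e-12). The higher ones were Cox6a2 and 4 complex I assembly factors, led by Ndufaf7 (2.20 ± 0.155, adjusted p = 2.79e-19). Ndufaf7 read 6.80, 6.59 and 6.75 in microglia, and its means were 5.69 in kidney F4/80high macrophages, 4.01 in Kupffer cells and 3.84 in Langerhans cells. No sample of the other 3 populations reached the microglia range.

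The other populations differed gene by gene. In Kupffer cells 15 members were higher and 5 lower (background 15.9% higher and 23.1% lower), with Cox5a higher by 1.20 and Ndufb11, an X-linked complex I subunit, at -1.48 (adjusted p = 2.14e-07). The split was 7 higher and 7 lower under median centring, 26 and 5 under quantile normalization, and 5 and 6 without wild-type replicate 1. Hepatocyte markers averaged 8.25 in Kupffer cells against 2.695 to 3.11 in the other 3 (15 of 16 higher), endothelial markers 5.22 against 2.615 to 3.085 (14 of 16), and T and NK cell markers 5.69 against 2.75 to 4.83 (11 of 13). In kidney F4/80high macrophages 20 were higher and 2 lower (background 17.8% higher and 12.3% lower), with Ndufc2 higher by 0.64 and Sdhc by 0.55. Without replicate 1, the sample with the highest tubule marker mean of its group (6.99), 9 were called. The tubule list was higher there in 13 of 14 genes. In Langerhans cells 30 were higher and 17 lower (background 25.6% higher and 27.3% lower). There 10 of 14 tested complex IV and 7 of 17 complex V subunits were higher, Atp5md by 1.45 and Cox4i1 by 0.655. Complex II was lower in 3 of 4 subunits, with Sdhc at -0.93, and the complex I subunit Ndufs8 was at -1.10. Keratinocyte markers averaged 6.985 in Langerhans cells against 2.74 to 2.84 in the other 3 (13 of 13 higher), and macrophage markers 6.87 against 9.56 to 9.86 (13 of 14 lower). Xist means were 9.99 in Langerhans cells, 7.84 in microglia, 3.27 in Kupffer cells and 3.04 in kidney F4/80high macrophages. The part of these lists and of sex was not tested, and the 4 comparisons share samples.

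**Figure D3:**
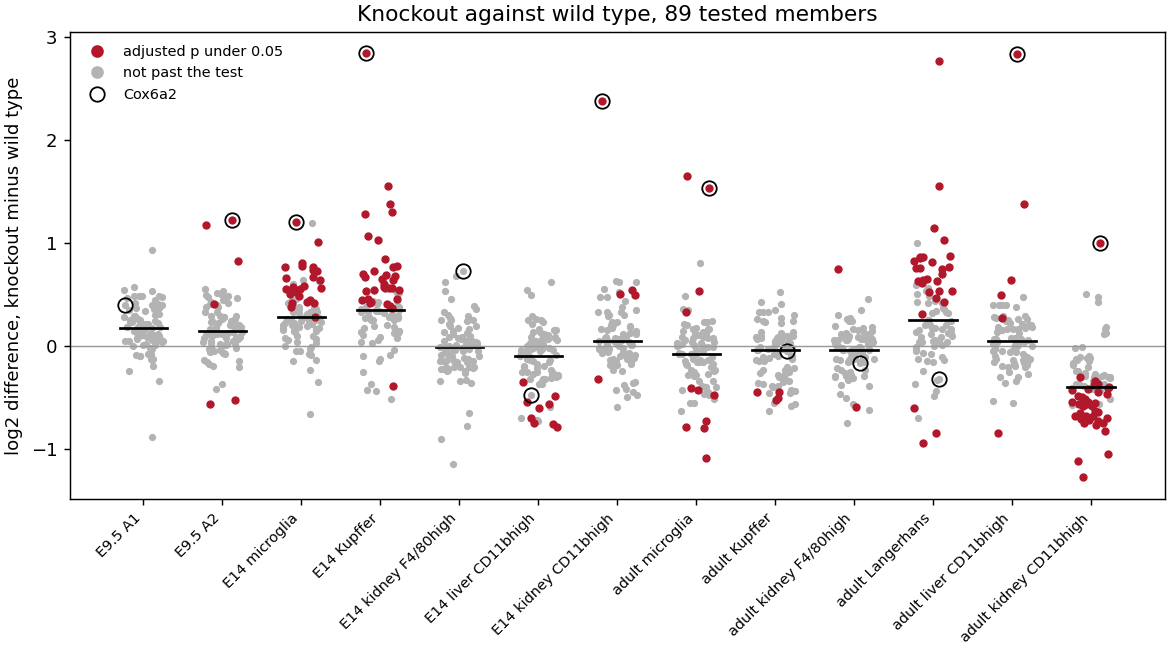
Log2 difference between Irf8 knockout and wild type for the 89 tested members in 13 populations; red points passed the test, grey points did not, black bars are medians and rings mark Cox6a2. Medians lie above 0 in E14 microglia (0.28) and E14 Kupffer cells (0.35) and below 0 in adult kidney CD11bhigh macrophages (-0.40), and Cox6a2 is ringed at 2.84 in both E14 Kupffer and adult liver CD11bhigh cells.

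In the knockout, calls among respiratory chain genes ran mainly upwards in E14 Kupffer cells, E14 microglia and adult Langerhans cells, while in most populations few members were called. In E14 Kupffer cells 33 members were higher and 1 lower (background 13.2% higher and 9.81% lower), with a member median of 0.35 against 0.03 for all genes. The subunit means were 8.30 to 8.43 in the knockout and 7.996 to 8.02 in wild type, without overlap. The higher members held 13 of 32 complex I subunits and 6 of 8 complex I assembly factors, such as Ndufaf6 (1.38 ± 0.25, adjusted p = 1.35e-05) and Ndufaf4 (1.07 ± 0.21, adjusted p = 7.88e-05). Uqcrc2, a core subunit of complex III, read 8.65, 8.55 and 8.64 in the knockout and 7.88, 7.80 and 7.86 in wild type, with no overlap. It was higher by 0.77 ± 0.15 (adjusted p = 9.22e-05). The lower member was Ndufb8 (-0.39, adjusted p = 0.0308). In the same comparison the macrophage list was lower in 10 of 14 genes (sample means 8.15 to 8.40 against 9.23 to 9.40), the erythroid list in 5 of 10 (6.92 to 7.24 against 7.52 to 8.09) and the hepatocyte list in 6 of 16 (4.13 to 5.34 against 5.77 to 6.05). Neutrophil markers were higher in 4 of 16 (5.85 to 6.88 against 5.53 to 5.78), and the part of these cell types was not tested. Mitochondrial ribosomal genes were higher in 43 of 71. Without knockout replicate 1 the members called numbered 20.

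E14 microglia showed the same direction, with 25 higher and 0 lower (background 8.3% higher and 5.98% lower) and a member median of 0.28 against 0.03. Cox5a read 10.57, 10.43 and 10.46 in the knockout and 9.65, 9.62 and 9.87 in wild type. It was higher by 0.77 ± 0.14 (adjusted p = 3.27e-05), Cox7a2 by 0.78 and Ndufv2 by 0.67. The knockout samples lay above every wild-type sample for all 25. The share of all called genes without overlap was not computed, so this adds nothing to the calls. The 2 comparisons in E14 cells share no samples, and 15 members were higher in both, 60% of the 25 and 45.5% of the 33. Of all tested genes 555 were higher in both, 39.1% of those higher in microglia and 24.6% of those higher in Kupffer cells. The neutrophil list was higher in 11 of 16 genes in knockout E14 microglia, with sample means of 8.12 to 8.52 against 3.82 to 6.74 and 0 and 1 markers at the floor, and its part in the result was not tested. With median centring 14 were called, with array weights or these 2 groups alone 44, and without wild-type replicate 1, knockout replicate 1 or knockout replicate 3 the counts were 13, 15 and 11.

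In the yolk sac few members passed the test. The member medians were 0.175 in A1 and 0.14 in A2 (0.006 and 0.025 for all genes). Every knockout sample had a higher subunit mean than every wild-type sample, at 8.28 to 8.38 against 8.14 to 8.17 in A1 and 8.27 to 8.34 against 8.10 to 8.22 in A2. In A1, 0 members were called by limma (background 0.591% higher and 2.77% lower), with 16 at an unadjusted p under 0.05. Array weights and median centring called 10 and 3, a fit of the A1 groups alone called 16, and leaving out knockout replicate 3 called 1. In A2, 4 were higher and 2 lower (background 3.77% higher and 6.28% lower). Cox4i2 read 7.50, 7.44 and 7.42 in the knockout against 6.01, 6.40 and 6.44, higher by 1.17 ± 0.29 (adjusted p = 0.0031) and without overlap. Ndufaf4 and Cox6a2 were higher by 0.82 and 1.22, and Sdhc and Uqcrc1 differed by -0.56 and -0.525. The macrophage list was lower in 9 of 14 genes in the knockout A2 cells. Without wild-type replicate 2 or knockout replicate 2, 2 calls were left, and without knockout replicate 1, 3. Array weights called 15 in A2 and a fit of the A2 groups alone called 14.

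In E14 kidney F4/80high macrophages 0 members were called by limma (background 0.591% higher and 1.38% lower), with 6 at an unadjusted p under 0.05 and 1 called with array weights, with median centring and with quantile normalization. E14 kidney CD11bhigh macrophages had 4 higher and 1 lower (background 5.92% higher and 8.05% lower), and 9 higher and 0 lower under median centring. Cox6a1 there was higher by 0.51 ± 0.10 (adjusted p = 9.02e-05). The calls numbered 3 without wild-type replicate 2 and also without knockout replicate 2.

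In E14 liver CD11bhigh macrophages, the population where the Irf8 signal differed most, 9 members were lower and 0 higher (background 5.73% higher and 8.29% lower). Sdha, the flavoprotein of succinate dehydrogenase, read 8.31, 8.12 and 8.40 in the knockout and 8.80, 8.82 and 8.91 in wild type. The genotypes did not overlap, and Sdha differed by -0.56 ± 0.16 (adjusted p = 0.0116). Sdhc differed by -0.595, Ndufa12 by -0.70 and Ndufaf4 by -0.79. The neutrophil list was higher in 5 of 16 genes (10.03 to 10.08 against 8.97 to 9.23), and its part was not tested. Array weights and a fit of these 2 groups alone raised the count to 26 and 32. Leaving out wild-type replicate 1 or knockout replicate 2 left 4 and 2 calls.

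Adult knockout Langerhans cells had 26 members higher and 3 lower (background 16.6% higher and 10.4% lower), with a member median of 0.25 against -0.01. Of the 32 complex I subunits 16 were higher. Ndufa8, an accessory subunit of complex I, read 8.75, 8.97 and 8.78 in the knockout and 7.96, 7.82 and 7.63 in wild type. It was higher by 1.03 ± 0.13 (adjusted p = 5.98e-09), and Ndufb8 and Ndufc2 by 0.76 and 0.75. Ndufa4l2, a paralogue of Ndufa4 known as a target of hypoxia-inducible factor, was also higher. It read 5.66, 5.69 and 6.25 against 3.02, 3.19 and 3.09. The wild-type values lie at the floor of 3.041, so the difference is a lower bound of at least 2.76 (adjusted p of the measured values = 1.42e-08). None of the other 12 populations gave a call for Ndufa4l2, and its other group means lay between 2.28 and 3.605, near the floor. Cox4i2 differed by -0.94 (adjusted p = 0.0102). The genotypes did not overlap for any of the 29 called members, and the share of all called genes without overlap was not computed. In the same samples 9 of 13 keratinocyte markers were higher and 3 lower, with sample means of 7.71 to 8.11 in the knockout and 6.82 to 7.18 in wild type and no marker at the floor, and 15 of 21 cell cycle genes were higher. Eif2s3y was 5.79 in the knockout and 1.87 in wild type (adjusted p = 0.0144). Their part in these differences was not tested. Of the 29 calls, 18 held in every fit with 1 sample left out, Ndufa4l2 and Ndufa8 among them.

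In the other adult populations most members did not pass the test. Adult microglia had 7 lower and 4 higher (background 5.85% higher and 8.71% lower), with Ndufa8 at -0.73, Uqcrq at -0.79, and Cox6a2, Cox6b2, Cox4i1 and Cox7a2l higher. Without wild-type replicate 3 the calls numbered 7. Adult liver CD11bhigh macrophages had 5 higher and 1 lower (background 9.19% higher and 7.56% lower), with Ndufv3, a complex I subunit, higher by 0.495 and Ndufaf7 at -0.85. Their calls numbered 3 without wild-type or knockout replicate 1. In that comparison 21 of 21 cell cycle genes and 12 of 16 neutrophil markers were higher (neutrophil sample means 9.80 to 10.11 against 5.58 to 6.995). There 8 of 9 B cell genes were also higher (4.90 to 5.82 against 3.94 to 4.16) and 7 of 14 macrophage markers lower (7.96 to 8.23 against 8.94 to 9.08), and the part of these lists was not tested. Adult kidney F4/80high macrophages had 1 higher, Sdhaf2 (0.75), and 1 lower, Ndufa12 (-0.59; background 1.37% higher and 2.19% lower). Leaving out wild-type replicate 3 or knockout replicate 1 or 3 ended both calls, and 1 was left without wild-type replicate 1.

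Adult Kupffer cells had 4 lower and 0 higher (background 4.49% higher and 7.39% lower). The 4 were Ndufc2 (-0.445), Atp5d (-0.52), Ndufa1 (-0.50) and Uqcrc2 (-0.45). For the first 3 the groups overlapped. Ndufa1 is X-linked, and the X-linked members Ndufb11 and Cox7b had differences of 0.35 and -0.03 that did not pass. The endothelial list was higher in 15 of 16 genes in these knockout cells, with sample means of 6.93 to 7.36 against 4.63 to 6.28 and 0 and 1 markers at the floor, and its part was not tested. The calls numbered 0, 2 and 9 without wild-type replicates 1, 2 and 3, and 9, 1 and 9 without the knockout ones. Under quantile normalization 1 was higher and 0 lower, and with array weights 0 were called.

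In adult kidney CD11bhigh macrophages 40 members were lower in the knockout and 1 higher (background 6.94% higher and 6.7% lower), with a member median of -0.40 against -0.01, but the count rested on 1 sample. Without wild-type replicate 1, the sample with the high tubule markers, 5 were lower and 2 higher. Sdhc kept its call. It read 7.38, 7.24 and 7.11 in the knockout against 8.76, 8.46 and 7.83, a difference of -1.11 ± 0.17 with that sample (adjusted p = 1.42e-06) and -0.905 without it (adjusted p = 0.000184). Ndufa12 kept it too, at -1.05 and -0.86. Ndufa7, Ndufaf7 and Cox7a2l were the other 3 lower members without that sample. The tubule markers averaged 6.31 to 8.93 in wild type and 4.97 to 6.72 in the knockout, 6 of 14 being lower, with 0 and 1 at the floor. The neutrophil list was higher in 11 of 16 genes (7.44 to 8.29 against 3.78 to 5.03) and the cell cycle list in 21 of 21, and the part of these lists was not tested. Without knockout replicates 2 or 3 the count of calls was 24 and 25. A fit of these 2 groups alone called 0 members, and array weights left 5.

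**Figure D4:**
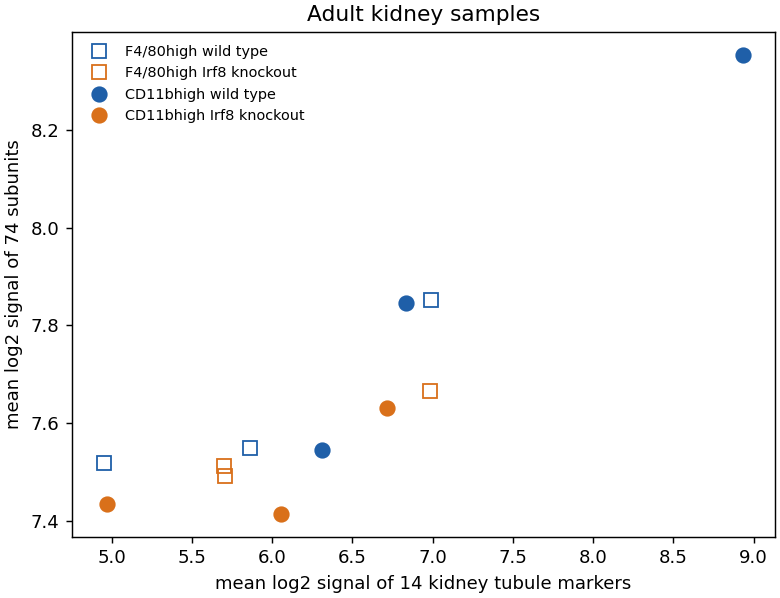
Mean log2 signal of the 74 tested subunits against that of 14 kidney tubule markers in the 12 adult kidney samples; filled circles are CD11bhigh, open squares F4/80high, blue wild type and orange knockout. The sample at the top right is CD11bhigh wild-type replicate 1, at 8.93 for the markers and 8.35 for the subunits.

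Cox6a2 was the member called in the most populations. It is the heart and muscle isoform of Cox6a, and it was higher in the knockout in 7 of 13, of which adult kidney CD11bhigh macrophages were called in some settings only. In E14 Kupffer cells it read 6.76, 7.77 and 8.02 in the knockout and 4.94, 4.83 and 4.27 in wild type. In adult liver CD11bhigh macrophages it read 6.74, 7.83 and 7.71 against 4.46, 4.55 and 4.76. In E14 kidney CD11bhigh macrophages the values were 6.41, 6.67 and 5.63 against 4.09, 3.94 and 3.53. In these 3 populations the genotypes did not overlap, and the differences were 2.84 ± 0.33, 2.84 ± 0.33 and 2.38 ± 0.33 (adjusted p = 4.04e-10, 1.81e-10 and 1.02e-07). Smaller differences passed in adult microglia (1.53), A2 (1.22), E14 microglia (1.20) and adult kidney CD11bhigh macrophages (1.00). The last call (adjusted p = 0.0303) was lost with array weights, in a fit of these 2 groups alone, and without wild-type replicate 2 or 3 or knockout replicate 1 or 2 (adjusted p from 0.0596 to 0.218). The A2 call was lost without wild-type replicate 3 or knockout replicate 2 (adjusted p = 0.0739 and 0.0623), and the E14 microglia call without knockout replicate 1 (adjusted p = 0.0658). Those that did not pass were 0.395 in A1, 0.73 and -0.16 in E14 and adult kidney F4/80high macrophages, -0.47 in E14 liver CD11bhigh macrophages, -0.05 in adult Kupffer cells and -0.32 in Langerhans cells. Over the 13 populations with equal weight the mean knockout effect was 1.01 ± 0.09 (adjusted p = 2.74e-14).

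Neutrophil markers moved with Cox6a2 in part. The list was higher in the knockout in 12 of 16 genes in adult liver CD11bhigh, 10 in E14 kidney CD11bhigh and 11 in adult kidney CD11bhigh macrophages, and in 11 in E14 microglia, but in 4 in E14 Kupffer cells, 2 in adult microglia and 1 in A2. The neutrophil mean was 10.05 in knockout E14 liver CD11bhigh macrophages, where the Cox6a2 mean was 5.41, and 6.31 in knockout E14 Kupffer cells, where it was 7.52. These groups come from different sorts, and the part of neutrophils in the Cox6a2 differences was not tested. The knockout differences of the common isoform Cox6a1 ran from -0.42 to 0.51.

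**Figure D5:**
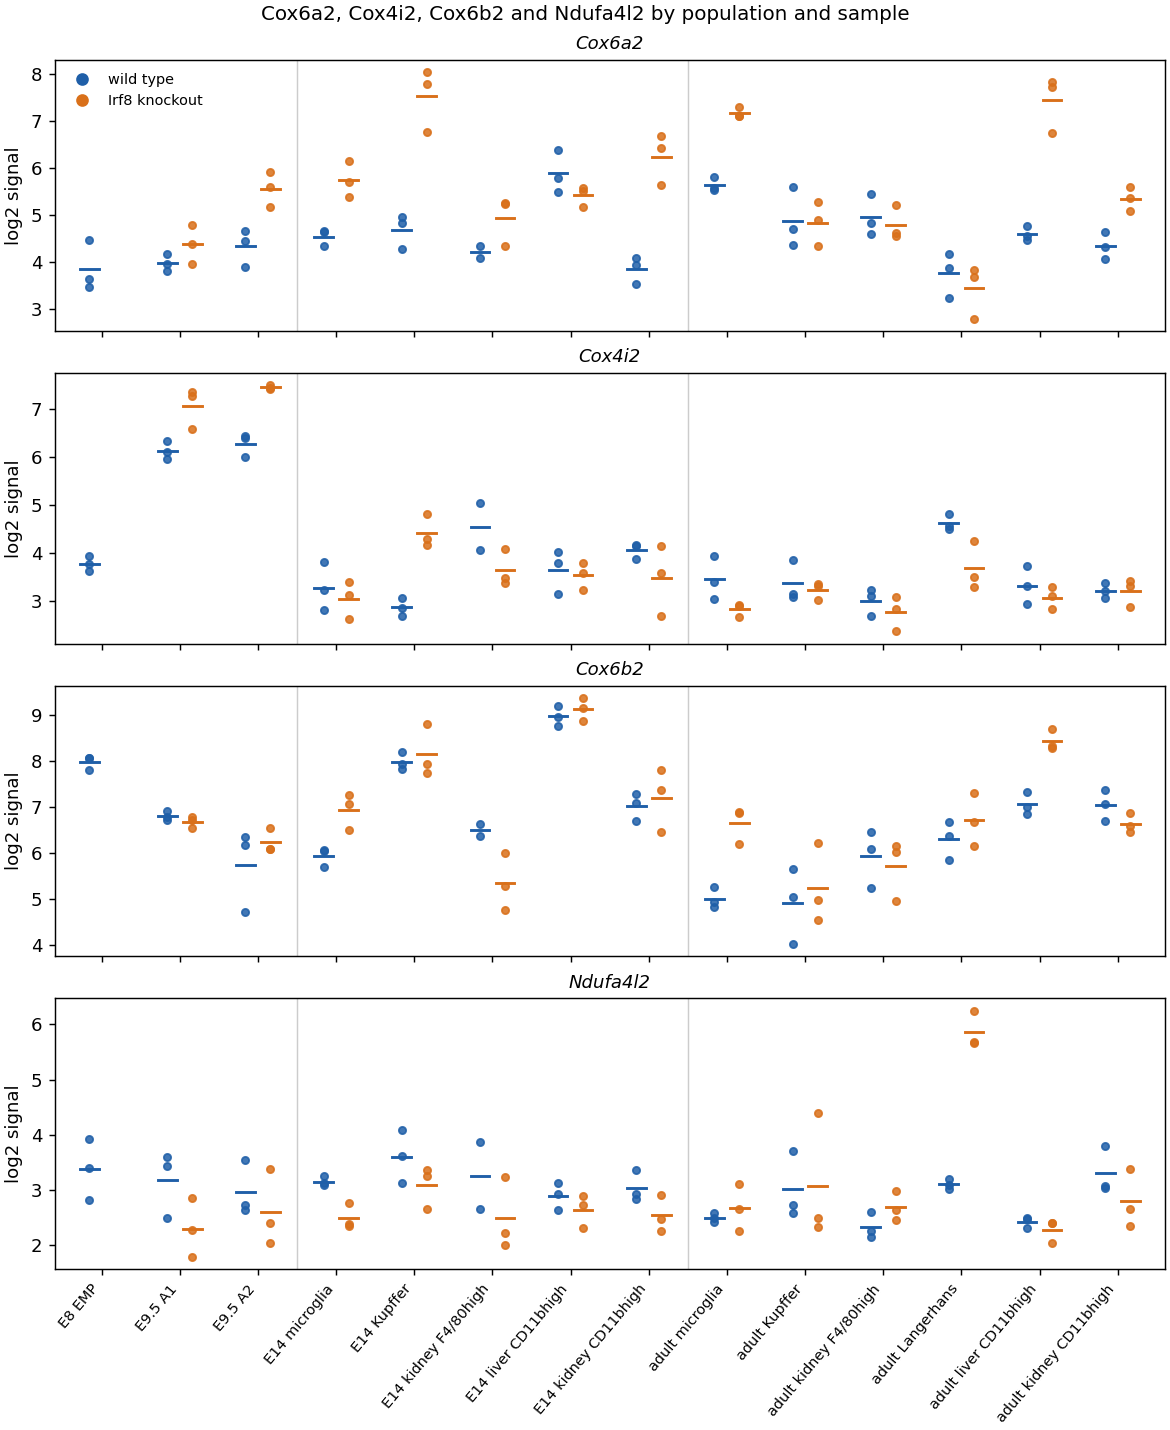
Log2 signal per sample of Cox6a2, Cox4i2, Cox6b2 and Ndufa4l2 in 14 populations; blue points are wild type, orange points Irf8 knockout, and bars are group means. Cox6a2 is higher in the knockout in 7 populations (in 1 of them, adult kidney CD11bhigh, in some settings only), Cox4i2 is highest in the A1 and A2 populations of the yolk sac, and Ndufa4l2 stands out in knockout Langerhans cells (5.87).

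Cox6b2 was higher in knockout adult microglia (6.86, 6.20 and 6.89 against 4.82, 5.26 and 4.93; 1.65 ± 0.36, adjusted p = 0.000466). It was also higher in adult liver CD11bhigh macrophages (8.69, 8.29 and 8.33 against 6.85, 6.99 and 7.33; 1.38 ± 0.36, adjusted p = 0.00347) and in E14 microglia (1.01, adjusted p = 0.0494). The group means of its partner Cox6b1 lay between 8.19 and 9.94 in all 27 groups. Cox4i2 read 4.82, 4.30 and 4.17 in knockout E14 Kupffer cells against 2.85, 2.69 and 3.07. Of these wild-type samples 2 were below the floor, so it was higher by at least 1.38 (adjusted p of the measured values = 2.96e-05). In each of these 4 comparisons the knockout samples lay above every wild-type sample.

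Averaged over the 13 populations, 17 members were higher and 5 lower in the knockout (background 15.4% higher and 15.5% lower), with a member median of 0.06 against 0.00. After Cox6a2 the higher ones were led by Ndufaf3 and Ndufaf2, with mean effects of 0.31 and 0.30 (adjusted p = 7.67e-05 and 0.000291), and 5 of the 8 complex I assembly factors were among the 17. Complex II had 3 of its 4 subunits lower: Sdhc at -0.185, Sdha at -0.16 and Sdhb at -0.11 (adjusted p = 0.00134, 0.00409 and 0.0251). These 3 kept sign and call under the 8 other settings run on the mean effect, which left out no sample. Sdhd, the other anchor subunit, was at 0.14 (adjusted p = 0.11). Within single populations, complex II subunits were called lower only in adult kidney CD11bhigh (2 of 4), E14 liver CD11bhigh (2) and A2 cells (1). In Langerhans cells 1 was higher, and none was called in the other populations. Adult kidney CD11bhigh macrophages hold the wild-type sample with the high tubule markers, and the mean effect without that sample was not computed.

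Whether the knockout effect differed between E14 and adult cells was tested directly, as the adult effect minus the E14 effect. In Kupffer cells it was below 0 for 23 members and above 0 for 0 (background 5.88% higher and 10.5% lower), in microglia for 16 and 0 (background 3.7% higher and 6.8% lower), and in kidney CD11bhigh macrophages for 25 and 0 (background 7.49% higher and 5.76% lower). In liver CD11bhigh macrophages it was above 0 for 7 and below 0 for 1 (background 9.18% higher and 5.36% lower). In kidney F4/80high macrophages 0 were called by limma (background 0.579% higher and 0.456% lower), with 9 at an unadjusted p under 0.05 and 0 in each of the other settings. Cox5a in microglia is an example: its knockout effect was 0.77 at E14 and -0.43 in adults, a difference of -1.20 ± 0.20 (adjusted p = 1.1e-05). The microglia count was 34 with array weights, 26 in a fit of the compared groups alone, and 10 with median centring and with quantile normalization. Without adult wild-type replicate 1 the Kupffer count was 14, under quantile normalization it was 16 below 0 and 2 above, and in a fit of the compared groups alone 11. The kidney CD11bhigh count was 2 in a fit of the compared groups alone and 11 with array weights. It was 10 without adult wild-type replicate 1, 42 without replicate 3, 14 without adult knockout replicate 3 or E14 wild-type replicate 2, and 16 and 15 without E14 knockout replicates 1 and 2. The liver CD11bhigh count was 18 in the fit of the compared groups and 14 with array weights. It was 5 without E14 wild-type replicate 3 or adult knockout replicate 2, and 4 without adult wild-type replicate 1 or E14 knockout replicate 2. Other lists moved in the same tests. Cell cycle genes were below 0 in 12 of 21 in microglia and above 0 in 21 of 21 in both CD11bhigh populations. Of 16 neutrophil genes, 6 were below 0 and 1 above in microglia and in kidney CD11bhigh cells. In liver CD11bhigh cells 1 was below and 7 above. The endothelial list was above 0 in 10 of 16 in Kupffer cells. Xist was 9.68 in knockout and 3.27 in wild-type adult Kupffer cells. The part of these lists and of sex was not tested.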

How the data were processed

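Cells were freed with collagenase (skin and liver also with dispase and DNase; brain cells then ran on a Percoll gradient) and sorted, and their RNA was amplified and biotin-labelled, per the labels' protocols. The deposited values are log2 signals; the submitters' processing notes name RMA and Affymetrix Expression Console as the tools of the authors, and the sources used here give neither version nor build. Of 41345 probes, 23521 had 1 symbol in the probe table, 1814 had several and 16010 were not listed. The probe with the highest mean stood for a gene. For Atp5h the 2 probes correlated at -0.118 over the 27 group means, so its values are uncertain. Genes above 3.041, the 50th percentile of all values, in at least 2 arrays were tested (17099). Array medians were 2.942 to 3.195, and precision is limited by how few arrays a group has. The 2 runs of A2 knockout replicate 2 were averaged as 1 sample.

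Group means were estimated in 1 limma 3.58.1 model (R 4.3.3) of all 80 samples, with a variance trend, 53 residual degrees of freedom, two-sided moderated tests, Benjamini-Hochberg adjustment over all tested genes and a threshold of 0.05. All groups entered because groups of 2 or 3 estimate the spread poorly. Named members were isoform pairs, Sdha to Sdhd, up to 5 per direction and comparison by adjusted p, and the 8 widest over wild-type groups; others were named after their values were seen. Members and lists were chosen with earlier results of these data known. The fit was tested on simulated data. Alternatives were the fit of the compared groups alone, replicate number as a block, array weights, median centring, quantile normalization, no filter, the mean over probes, single array runs and leaving out each sample. Background shares are for the fit over all groups only, so counts under the alternatives stand without a background. Same-numbered knockout and wild-type samples of a population correlated between -0.176 and 0.151, so the block is given as an alternative only; samples of 2 populations of 1 organ enter together only in the step from A1 to A2, the F-test and the mean effect. Promoters were matched to RefSeq by Entrez gene identifier. Python 3.11.15 with pandas 2.3.3 was used for descriptions. Protein sequences were not analysed here.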

Additional observations from a re-analysis of the deposited data

Results flagged for a closer look

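The knockout effect differed between E14 and adult cells for the members below, by a test of the difference itself (limma, adult effect minus E14 effect, adjusted p under 0.05). In Kupffer cells the difference was -2.89 for Cox6a2, -1.96 for Ndufaf6 and -1.215 for Uqcrc2 (adjusted p = 5.76e-06, 3.34e-05 and 3.76e-05). In microglia it was -1.20 for Cox5a, -1.52 for Ndufa11 and -0.96 for Atp5pb, a stator subunit of the ATP synthase. In kidney CD11bhigh macrophages it was -0.925 for Cox6a1, -1.27 for Ndufaf7 and -0.86 for Ndufa8. Without adult wild-type replicate 1, whose tubule markers averaged 8.93, these were -0.72, -1.32 and -0.64, still called, but the members called in that comparison numbered 10 in place of 25, and 2 in a fit of the compared groups alone. In liver CD11bhigh macrophages it was 3.31 for Cox6a2, 1.14 for Ndufaf2 and 0.46 for Cox6a1, and -1.34 for Ndufaf7. Cox6a2 therefore had differences of opposite sign in the liver populations, with knockout effects of 2.84 at E14 and -0.05 in adults for Kupffer cells, and of -0.47 and 2.84 for CD11bhigh macrophages. For Ndufaf7 the liver CD11bhigh effect was -0.85 in adults, and its means were 5.84 in the knockout and 6.68 in wild type. Lists of other cell types and of the cell cycle moved in these tests too, as given above, and their part was not tested.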

How the results depend on the processing

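Counts of members called that moved by more than 1.5 times are given with the count of the fit over all groups in brackets. The share of all tested genes called in each setting is not given, so a moved count is not by itself a result about the members. A fit of the compared groups alone gave, for knockout against wild type adult microglia 7 (from 11), adult Kupffer 0 (from 4), adult kidney F4/80high 0 (from 2), adult kidney CD11bhigh 0 (from 41), E14 microglia 44 (from 25), E14 liver CD11bhigh 32 (from 9), E14 kidney CD11bhigh 2 (from 5), A1 16 (from 0), A2 14 (from 6), and over the early steps EMP to A1 21 (from 10), A1 to A2 2 (from 1), A2 to E14 Kupffer 25 (from 15), and from E14 to adult kidney CD11bhigh 1 (from 15), and for adult against E14 knockout effects microglia 26 (from 16), Kupffer 11 (from 23), liver CD11bhigh 18 (from 8), kidney CD11bhigh 2 (from 25). Array weights gave, for knockout against wild type adult Kupffer 0 (from 4), adult kidney CD11bhigh 5 (from 41), E14 microglia 44 (from 25), E14 kidney F4/80high 1 (from 0), E14 liver CD11bhigh 26 (from 9), E14 kidney CD11bhigh 9 (from 5), A1 10 (from 0), A2 15 (from 6), and over the early steps EMP to A1 22 (from 10), A1 to A2 3 (from 1), A2 to E14 kidney F4/80high 18 (from 10), and for adult against E14 knockout effects microglia 34 (from 16), liver CD11bhigh 14 (from 8), kidney CD11bhigh 11 (from 25). Median centring gave, for knockout against wild type adult kidney CD11bhigh 27 (from 41), E14 microglia 14 (from 25), E14 kidney F4/80high 1 (from 0), E14 kidney CD11bhigh 9 (from 5), A1 3 (from 0), and over the early steps A2 to E14 Kupffer 26 (from 15), and for adult against E14 knockout effects microglia 10 (from 16). Quantile normalization gave, for knockout against wild type adult Kupffer 1 (from 4), E14 kidney F4/80high 1 (from 0), and over the early steps A1 to A2 0 (from 1), and for one adult population against the others Kupffer 31 (from 20), and for adult against E14 knockout effects microglia 10 (from 16). Testing without the filter gave, over the early steps A1 to A2 0 (from 1). With replicate number as a block the only counts that moved by more than 1.5 times were, for knockout against wild type A1 1 (from 0), and over the early steps A1 to A2 2 (from 1). Knockout and wild-type samples of 1 population with the same number correlated between -0.176 and 0.151. Samples of 2 populations of 1 organ whose titles share a number correlated between -0.034 and 0.386 (29 pairs), and in 0 of 10 such sets was every pair above 0.1. The mean over probes and either array run moved no count that far. The cause of these differences was not tested. Leaving out 1 sample at a time gave the following lowest and highest counts. For knockout against wild type they were adult microglia 7 to 11, E14 microglia 11 to 20, A1 0 to 1, A2 2 to 6, E14 Kupffer 20 to 28, E14 liver CD11bhigh 2 to 9, adult kidney CD11bhigh 7 to 51, adult kidney F4/80high 0 to 2, adult liver CD11bhigh 3 to 5, adult Kupffer 0 to 9, E14 kidney CD11bhigh 3 to 6, E14 kidney F4/80high 0 to 0, adult Langerhans 22 to 31. From E14 to adult they were microglia 50 to 56, Kupffer 25 to 47, liver CD11bhigh 45 to 49, kidney CD11bhigh 8 to 40, kidney F4/80high 26 to 50. For one adult population against the others they were microglia 46 to 55, Kupffer 11 to 26, kidney F4/80high 9 to 26, Langerhans 38 to 49. For adult against E14 knockout effects they were microglia 12 to 18, Kupffer 14 to 28, liver CD11bhigh 4 to 8, kidney CD11bhigh 10 to 42, kidney F4/80high 0 to 0. Over the early steps they were A2 to E14 microglia 29 to 36, EMP to A1 4 to 11, A1 to A2 0 to 1, A2 to E14 Kupffer 9 to 14, A2 to E14 kidney F4/80high 3 to 8. Of 296 gene and comparison pairs named, 0 reversed sign. Calls lost numbered 1 with the block, 24 with array weights, 25 with centring, 21 with quantile normalization, 19 without the filter and 3 with the mean over probes. Of the 283 pairs outside the mean effect and the F-test, 61 lost the call in the fit of the compared groups alone and 117 in at least 1 fit with a sample left out. Groups of 3 arrays limit the precision, and genes near the floor, such as Cox8b, Atp5g1 and Ndufa4l2 outside knockout Langerhans cells, have no measured order.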

Other observations

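Other lists of genes that serve the chain were counted from E14 to adult, and lower calls outnumbered higher ones in each population except for the last list in microglia. Of 12 tested genes of cytochrome c and coenzyme Q synthesis, 2, 6, 5 and 6 were lower in adult microglia, Kupffer, kidney F4/80high and liver CD11bhigh cells (limma, adjusted over all tested genes), and 0, 0, 0 and 1 higher. Of 18 assembly factors of complexes III and IV, 4, 6, 5 and 9 were lower and 0, 0, 0 and 0 higher. Of 16 regulators of mitochondrial biogenesis, 0, 6, 3 and 7 were lower and 1, 0, 1 and 0 higher. Of all 17099 tested genes 11.7%, 18.3%, 16% and 20.3% were lower and 6.68%, 11.8%, 12.2% and 14% higher. Lower calls thus outnumbered higher ones among all genes too. For the biogenesis regulators the lower share was below that of all genes in microglia and near it in kidney F4/80high cells.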
